A study of Mus musculus with 3 samples.

Results

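The 67 genes described here are the replication-dependent histone genes of mouse that carry a symbol of the form Hist1h to Hist4h, taken as every gene of the authors' deposited table whose symbol begins that way. They make up 78 of the 17910 transcript entries and 67 of the 11886 genes of that table, or 0.564% of its genes. The study compared mT3-2D-GFP, a line from a KPC tumour (a mouse model of pancreatic cancer) of C57BL/6 origin that carries green fluorescent protein, in culture and after growth as a tumour. One library came from the cultured line, 1 from GFP-positive cells sorted from 5 tumours in B6.CB17-Prkdcscid/SzJ mice (SCID, which lack working T and B cells and keep innate immune cells), and 1 from such cells of 6 tumours in C57BL/6 mice (WT). RNA of the tumours of each group was pooled before sequencing, all groups rest on this 1 line, and the labels give no age. With 1 library a group no difference between conditions was tested. The table holds log2 fold changes between libraries and no levels, so no value per library can be given and the depth behind each value is unknown. Below, a gene's value is the mean over its transcript entries on the deposited log scale, which names no base and is taken as log2. A gene is called lower or higher at 2-fold or more, which is 1 on that scale.

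Histones H2A, H2B, H3 and H4 form the core on which DNA is wound in the nucleosome, and the linker histone H1 binds where DNA enters and leaves it. Cells need a new set of these proteins each time they copy their DNA, and the genes for them lie in clusters and are transcribed mainly in S phase. Their mRNAs are the only known mRNAs of animal cells that usually end in a conserved stem-loop instead of a poly(A) tail. The stem-loop binding protein Slbp holds this structure and guides the 3' cut, and the mRNAs are degraded when DNA synthesis stops. Some of the genes also give longer transcripts with a poly(A) tail, among them in cells that no longer divide. Per the labels' protocols the libraries were made by poly(A) cDNA synthesis. A lower amount of a histone mRNA, fewer cells in S phase, and a smaller share of that mRNA with a tail cannot be told apart in such libraries.

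Whether the end of the mRNA bears on the values below was not tested. Stem-loops of members of each core type, of a linker histone and of Hist4h4 are shown. They are given 5′ to 3′ in the sense of the gene, from GENCODE vM21 transcripts on GRCm38, with the stem, loop and stem in capitals and 5 flanking bases in lower case.
Hist1h1d, chr13:23555782-23555807, forward strand: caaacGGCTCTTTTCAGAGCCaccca
Hist2h2ac, chr3:96220413-96220438, reverse strand: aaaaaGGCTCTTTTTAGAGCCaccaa
Hist1h2bj, chr13:22043633-22043658, forward strand: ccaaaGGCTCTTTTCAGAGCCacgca
Hist1h2be, chr13:23585526-23585551, reverse strand: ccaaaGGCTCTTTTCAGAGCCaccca
Hist1h3g, chr13:23535884-23535909, forward strand: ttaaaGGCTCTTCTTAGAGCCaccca
Hist2h3c2, chr3:96238480-96238505, reverse strand: acaaaGGCTCTTTTCAGAGCCaccac
Hist1h4f, chr13:23551286-23551311, reverse strand: tcaaaGGCCCTTTTCAGGGCCaccca
Hist4h4, chr6:136803993-136804018, reverse strand: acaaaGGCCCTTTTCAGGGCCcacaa
The H4 genes in this set have GGCCCT and AGGGCC as the arms of the stem, where the others have GGCTCT and AGAGCC. On the sense strand after the coding sequence, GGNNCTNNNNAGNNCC was found in 46 of 66 GENCODE transcripts matched to members (69.7%) and in 2.19% of 55042 other coding transcripts. The stricter GGCTCTNNNNAGAGCC was found in 34 of the 66 (51.5%) and in 0.0218% of the others. Of the 20 without a match to the looser motif, 17 have fewer than 50 bases after the coding sequence in GENCODE, and a missing match says only that these letters are not in that stretch.

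Nearly all of the histone cluster genes had lower values in the tumour cells of both host strains than in the cultured line. In SCID tumours 64 of 67 were lower by 2-fold or more, where 2.62% of all genes were, and none was higher by 2-fold, where 3.65% of all genes were. In WT tumours 64 of 67 were lower as well, where 2.03% of all genes were, and none was higher, where 4.12% of all genes were. The same 64 genes were called in both. The median of the 67 was -1.60 in SCID tumours (3.02-fold lower) and -1.69 in WT tumours (3.22-fold lower), beside -0.02 and -0.01 over all genes. At 4-fold, 1 member was lower in SCID tumours, where 0.0337% of all genes were, and 2 in WT tumours, where 0.0421% were. Both comparisons are made against the same library of the line. Values over all entries of the table lie between -2.49 and 2.77, and no source used here says whether the authors shrank them toward 0. If they did, the folds printed here are smaller than unshrunk ones, by an amount that depends on depth. The quartiles of the members were -1.75 and -1.48 in SCID tumours and -1.79 and -1.55 in WT tumours. For scale, transcripts of one gene differed with a pooled SD of 0.33 and 0.31 over the whole table, which measures no animals. Histone genes held 53 of the lowest 100 places in SCID tumours and 61 of the lowest 100 in WT tumours, and they were 20.5% and 26.6% of all genes called lower there.

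**Figure D1:**
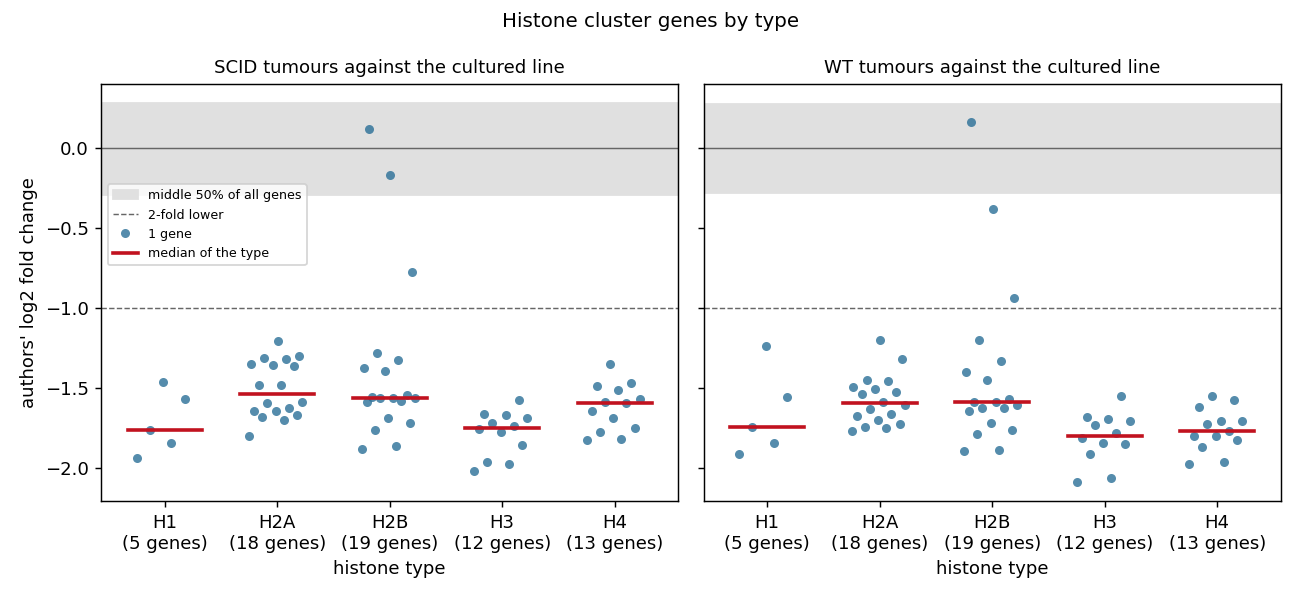
Authors' log2 fold change of the 67 histone cluster genes against the cultured line (vertical axis) by histone type, in SCID tumours (left) and WT tumours (right). Each point is 1 gene, red lines are medians, the grey band holds the middle 50% of all genes, and all but 3 H2B genes lie under the dashed line for 2-fold lower.

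The 5 linker histone genes were all lower by 2-fold in both hosts, with a median of -1.76 in SCID and -1.74 in WT tumours. Hist1h1d (H1.3) was lowest, at -1.94 in SCID and -1.92 in WT tumours. Hist1h1b (H1.5) was at -1.85 and -1.85, Hist1h1e (H1.4) at -1.76 and -1.74, and Hist1h1c (H1.2) at -1.57 and -1.56. Hist1h1a (H1.1) was the least lowered of the 5, at -1.46 in SCID and -1.24 in WT tumours. Apart from Hist1h1a, the linker genes differed by no more than 0.02 between the hosts.

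All 18 H2A genes were lower by 2-fold in both hosts, with medians of -1.54 and -1.60. The lowest in SCID tumours was Hist1h2ap at -1.80, which was at -1.75 in WT tumours. In WT tumours Hist2h2ac was lowest at -1.77, with -1.70 in SCID tumours. Hist3h2a was the least lowered, at -1.21 in SCID and -1.20 in WT tumours. Hist1h2al, a transcribed pseudogene per RefSeq, was at -1.67 and -1.73.

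Of 19 H2B genes 16 were lower by 2-fold in both hosts, with medians of -1.56 and -1.59, and the members short of 2-fold were all H2B genes. This did not hold with a GC and length trend subtracted, where Hist1h2ao at -0.98 and Hist2h2aa2 at -0.999, both H2A genes, also fell short in SCID tumours. Hist2h2bb was lowest in SCID tumours at -1.89 and stood at -1.89 in WT tumours as well, beside Hist1h2bj at -1.86 and -1.90. Hist1h2ba, the gene of the testis form of H2B, was at -1.29 and -1.40. At the other end, Hist2h2be was at 0.12 in SCID and 0.16 in WT tumours, the only member above 0. Hist1h2bc was at -0.17 and -0.38, and Hist1h2be at -0.78 and -0.94. The nearest members on the other side of 2-fold were Hist3h2a at -1.21 in SCID tumours and Hist3h2bb-ps, a transcribed pseudogene per RefSeq, at -1.20 in WT tumours.

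The 12 H3 genes had medians of -1.75 in SCID and -1.80 in WT tumours, and all 12 were lower by 2-fold in both. Hist2h3c2 was at -2.02 in SCID (4.06-fold lower) and -2.06 in WT tumours, Hist1h3g at -1.96 and -2.09, and Hist2h3c1 at -1.97 and -1.92. Hist1h3e was the highest of the type in both, at -1.58 and -1.55. The 13 H4 genes, which encode the most conserved of the histones, were all lower by 2-fold in both hosts, with medians of -1.60 and -1.77. Hist2h4 was lowest in SCID tumours at -1.83, with -1.96 in WT tumours, and Hist1h4f lowest in WT tumours at -1.98, with -1.82 in SCID tumours. Hist4h4 was highest, at -1.35 in SCID and -1.55 in WT tumours.

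The 3 H2B genes short of 2-fold were the coding members with an entry spanning much more of the genome than the rest, introns included. Among the 76 coding transcript entries of members, 72 spanned no more than 1000 bases of genome and 4 spanned more, a division made after the values had been seen. All 72 short entries were lower by 2-fold in both hosts, with medians of -1.59 in SCID and -1.68 in WT tumours. None of the 4 long entries was. The non-coding Hist1h2al also has a long entry, spanning 2983 bases, and was lower by 2-fold in both hosts, so the span of the entry alone did not separate the members. In the 51 entries where the stem-loop was placed and the entry ended within 10 bases of it, values ran from -2.04 to -1.21 in SCID tumours and from -2.09 to -1.14 in WT tumours. The 25 entries where no stem-loop was found had medians of -1.57 in SCID and -1.61 in WT tumours. Of these 25, 23 were lower by 2-fold in each host.

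Hist1h2bc and Hist1h2be each have short and long entries, which differ within 1 gene. The short entry of Hist1h2bc (NM_001290380, chromosome 13 from 23684199 to 23684667, forward strand) was at -1.35 in SCID and -1.43 in WT tumours. Its long entry (NM_023422, 23684199 to 23692480) begins at the same base and was at 1.01 in SCID (2.01-fold higher) and 0.66 in WT tumours (1.58-fold higher). GENCODE gives the long form 2 exons, the first with the coding sequence from 23684232 to 23684609 and the other from 23692176 on, so the 3' ends of the long and short forms lie in different places. The short entry of Hist1h2be (NM_001290530, chromosome 13 from 23585526 to 23585970, reverse strand) was at -1.53 and -1.66. Its long entries, NM_178194 (23583670 to 23621124) and NM_001177653 (23583670 to 23621094), were at -0.11 and -0.68 in SCID and at -0.61 and -0.55 in WT tumours. They begin in a separate first exon upstream, hold the same coding sequence and the stem-loop shown above, and run 1861 bases past it. Hist2h2be has 1 entry (NM_178214, chromosome 3 from 96221072 to 96223738, forward strand, 2667 bases, 1 exon in GENCODE), at 0.12 and 0.16. How the authors divided reads among overlapping transcripts is not given in the sources used here.

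**Figure D2:**
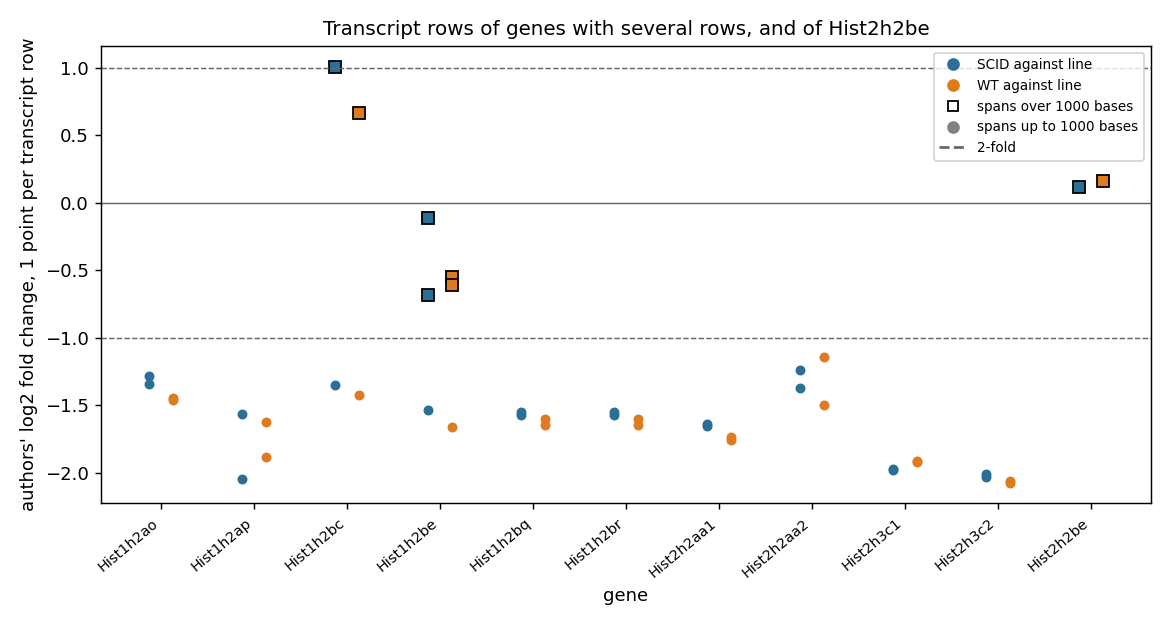
Authors' log2 fold change of each transcript entry (vertical axis) for the 10 histone genes with more than 1 entry and for Hist2h2be, against the line in SCID tumours (blue) and WT tumours (orange). Squares are entries spanning over 1000 bases and circles shorter ones: every circle lies under the lower dashed line (2-fold) and every square above it.

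The list of histone genes described in the literature as also giving polyadenylated transcripts held 7 genes, all measured. Their median was -1.32 in SCID and -1.54 in WT tumours, and 5 of the 7 were lower by 2-fold in both. Hist2h2be and Hist1h2bc were the others. The 5 were Hist1h1c, Hist1h2ac at -1.32 and -1.54, Hist1h2bk at -1.69 and -1.76, Hist3h2a and Hist4h4, and the table has a single short entry for each of them. Without the list, the other 60 members had medians of -1.63 and -1.70.

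The start sites of Hist1h2be can be set side by side, since its short and long entries begin at different ones. The 250 bases before the start of the short entry and of the long entry NM_001177653 are shown, 5′ to 3′ on the reverse strand. The other long entry, NM_178194, starts at 23621124, within the second window, whose last bases are thus part of its first exon. The windows are from RefSeq's GRCm38.p6 table, with matches to the motifs searched in capitals (CCAAT as itself or as its complement ATTGG on the other strand, and likewise TATAAA and ATTTGCA and AAACACA).
Hist1h2be, short entry, chr13:23585971-23586220: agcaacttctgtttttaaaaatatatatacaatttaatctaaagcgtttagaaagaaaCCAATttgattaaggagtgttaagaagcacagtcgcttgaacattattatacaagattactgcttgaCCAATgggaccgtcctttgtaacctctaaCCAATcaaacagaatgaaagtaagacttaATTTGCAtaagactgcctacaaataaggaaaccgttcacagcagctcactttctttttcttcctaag
Hist1h2be, long entries, chr13:23621095-23621344: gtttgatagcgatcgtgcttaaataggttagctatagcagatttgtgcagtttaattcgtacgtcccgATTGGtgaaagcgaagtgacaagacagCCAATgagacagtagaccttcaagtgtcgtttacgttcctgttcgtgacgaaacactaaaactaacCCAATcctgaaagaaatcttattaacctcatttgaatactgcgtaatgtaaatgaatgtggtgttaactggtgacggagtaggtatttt
Both windows hold CCAAT, and ATTTGCA, which is 7 letters of the octamer bound by Pou2f1 (Oct-1), is in the window of the short entry and not in the other. Over 300-base windows from 250 before to 50 after the start, CCAAT was in 52 of 61 member promoters (85.2%) and in 37.4% of all 32851 promoters. It was in every H1, H2A, H2B and H3 window and in 3 of 12 H4 windows. TATAAA was in 34 of 61 (55.7%, against 13.6% of all). ATTTGCA was in 13 of 61 (21.3%, against 4.02% of all), namely 6 of 17 H2A and 7 of 17 H2B windows. AAACACA, the H1 box, was in 7 of 61 (11.5%, against 7.18% of all). It was in 4 of 5 H1 windows (80.0%), 1 of 17 H2A and 2 of 17 H2B windows. These matches describe letters, and windows of genes that lie head to head overlap.

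The members lie in 4 clusters. Hist1, on chromosome 13, had 53 genes with medians of -1.60 in SCID and -1.69 in WT tumours. Hist2, on chromosome 3, had 10 genes with medians of -1.77 and -1.81. Hist3, on chromosome 11, had 3 genes, at -1.21 and -1.20 (Hist3h2a), -1.38 and -1.33 (Hist3h2ba) and -1.39 and -1.20 (Hist3h2bb-ps). In both hosts all 3 Hist3 genes lay above the upper quartile of the members. Hist4 was Hist4h4 alone, on chromosome 6. Hist1 falls in 2 blocks, 23 genes from 21715713 to 22043658 with medians of -1.64 and -1.73, and 29 genes from 23531044 to 23934156 with medians of -1.57 and -1.62. Hist1h2al lies outside both. Many H2A and H2B genes sit head to head. In the 9 such pairs of genes with 1 short entry each, 172 to 280 bases apart, the members of a pair differed by 0.01 to 0.28 in SCID tumours (median 0.06) and by 0.00 to 0.19 in WT tumours (median 0.08). Hist1h2ao, Hist1h2ap, Hist1h2bq and Hist1h2br are listed at 2 positions each and are not among these pairs. Their facing entries differed by 0.01 to 0.49 in SCID and by 0.02 to 0.28 in WT tumours. Entries spanning over 1000 bases were left out of all these pairs, a division made after the values had been seen. Among those left out, Hist2h2be at 0.12 in SCID and 0.16 in WT tumours faces Hist2h2ac at -1.70 and -1.77. Hist1h2ac and the short entry of Hist1h2bc, which face each other, were at -1.32 and -1.35 in SCID tumours, while the long entry that shares the start of the latter was at 1.01.

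Members share sequence, so their values are not 67 separate measurements. Of 66 genes with a GENCODE transcript, 4 had no stretch of 75 bases, the length of a read, in common with a transcript of another gene, 33 shared under 50% of such stretches and 29 shared 50% or more. The medians in SCID tumours were -1.65, -1.59 and -1.60 in these sets, and in WT tumours -1.54, -1.69 and -1.67. Hist1h1b, Hist1h1a, Hist2h4 and Hist2h2be were the genes with none in common. The share of a gene with several matched transcripts is that of the transcript sharing least. The table lists 8 accessions at 2 positions each. Hist1h2bq and Hist1h2br occupy the same intervals and have the same values. Hist1h2ap, at -2.04 and -1.56 in SCID tumours at its 2 positions, lies within entries of Hist1h2ao at -1.28 and -1.34. Member transcripts are short and rich in G and C, with a median length of 528 bases and 59.1% GC in GENCODE, against 2963 bases and 50.5% over the table. With a trend on GC and transcript length subtracted from all values, the medians were -1.32 and -1.40, with 60 and 62 of 66 genes lower by 2-fold, where 2.74% and 2.14% of all genes were. Those that then fell short beside Hist1h2bc, Hist1h2be and Hist2h2be were, with the H2A genes given above, Hist1h2ba at -0.92 in SCID tumours and Hist3h2bb-ps at -0.89 in WT tumours.

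Genes of cell division were lower in the same comparisons, by less at the median. Over all genes, 2.62% were lower by 2-fold in SCID and 2.03% in WT tumours, the shares to set beside each count here. Of 17 genes of G2 and mitosis, 16 were lower by 2-fold in SCID and 14 in WT tumours, with medians of -1.29 and -1.17; Ube2c, which works with the anaphase-promoting complex, was at -1.62 and -1.56. Of 34 S phase genes, 9 and 8 were lower by 2-fold, with medians of -0.82 and -0.78. Rrm2, a subunit of the enzyme that makes deoxynucleotides, was at -1.82 and -1.86, Ccna2 (cyclin A2) at -1.57 and -1.48 and Prim1, a primase subunit, at -1.35 and -1.27. Of 26 histone chaperones and import factors, 2 and 1 were lower by 2-fold, with medians of -0.39 and -0.45. These were Asf1b, which hands H3 and H4 to the assembly machinery, at -1.22 and -1.15, and Chaf1a, the large subunit of the chromatin assembly factor at the replication fork, at -1.03 and -0.98.

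The factors that make histone mRNA stayed within 2-fold. Of 29 measured genes of histone gene transcription and pre-mRNA processing, none passed 2-fold in either host and the medians were -0.29 and -0.28. Few of all genes did: 2.62% were lower and 3.65% higher in SCID tumours, and 2.03% and 4.12% in WT tumours. Slbp was at -0.20 in SCID and -0.52 in WT tumours. Npat, the coactivator that switches on histone genes at the start of S phase, was at -0.08 and -0.21, and Lsm11, of the U7 particle that directs the cut, at -0.15 and -0.25. Ncbp1, of the cap-binding complex, at -0.72 and -0.67, and Snrpb, a core protein of splicing particles, at -0.65 and -0.50, were lowest of the list in SCID tumours. The 9 measured replication-independent histone genes, whose mRNAs are made outside S phase too, had medians of -0.14 and -0.15. Of these H2afx, which is known to give both stem-loop and polyadenylated mRNA, was at -1.27 and -1.19, and Cenpa, the H3 of centromeres, at -1.004, just past 2-fold, and -0.82. The only entry of Cenpa is a non-coding transcript, so no value of its coding mRNA was given. H3f3a and H3f3b, which encode the H3.3 protein, were at -0.08 and 0.29 in SCID and at -0.15 and 0.12 in WT tumours. Among 10 enzymes that modify histones the medians were -0.10 and -0.11, with Ezh2, which methylates H3, at -0.88 and -0.79 and Dot1l at 0.36 and 0.41.

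**Figure D3:**
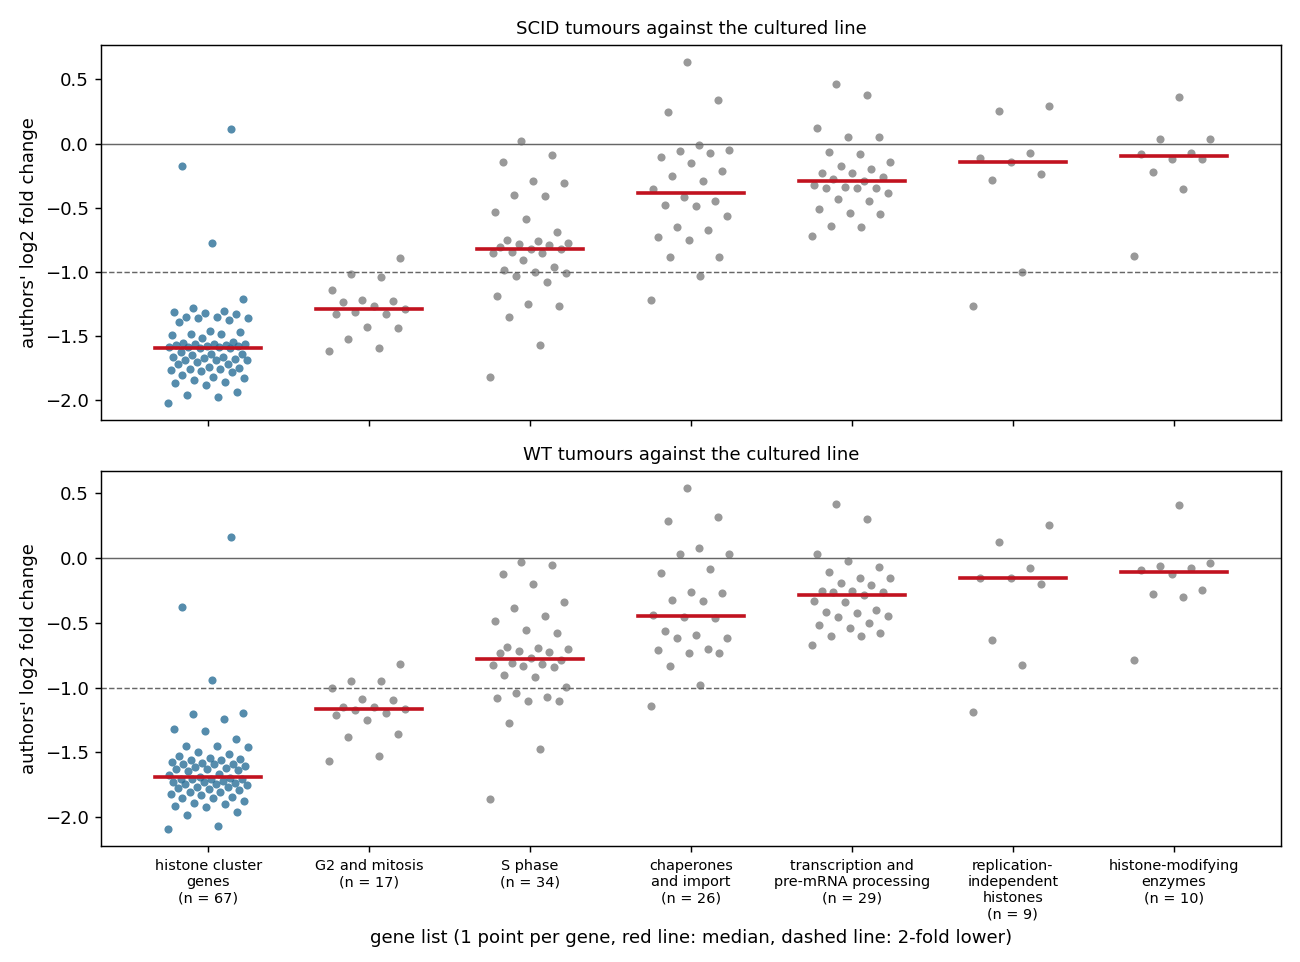
Authors' log2 fold change against the cultured line (vertical axis) for the 67 histone cluster genes (blue) and 6 lists of related genes (grey), in SCID tumours (top) and WT tumours (bottom). Each point is 1 gene and red lines are medians, which run from -1.60 for the histone genes to -0.10 for histone-modifying enzymes in SCID tumours.

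Between the hosts the histone genes differed little. No member was higher or lower by 2-fold in WT against SCID tumours, where 0.303% of all genes were higher and 0.0168% lower. The median of WT minus SCID was -0.06, beside 0.00 over all genes, and 50 of 67 members were below 0, against 48.5% of all genes. Members ranged from -0.26 to 0.22, and 1 of 67 lay farther from 0 than the pooled SD between transcripts of a gene, which was 0.22 (1.49%, against 10.9% of all genes). The lowest were Hist1h4m at -0.26, Hist1h2ac at -0.22 and Hist1h4c at -0.22, and the highest Hist1h1a at 0.22, Hist3h2bb-ps at 0.19 and Hist2h3c1 at 0.06. By type, the lowest H2B gene was Hist1h2bc at -0.21 and the lowest H3 gene Hist1h3g at -0.13, while Hist1h2ap at 0.05 was the highest of H2A and Hist1h4b at -0.03 the highest of H4. A single entry can move as far as the whole range: the 2 positions of Hist2h2aa2 were at 0.23 and -0.26, for a gene mean of -0.01.

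Signs differed by histone type in this comparison. Every type median lay nearer 0 than the pooled SD of 0.22 between transcripts of a gene. No difference between types was tested, and genes of a type are not replicates. All 13 H4 genes were below 0, from -0.26 to -0.03, with a median of -0.13, and 14 of 18 H2A genes were (median -0.07). Of the H2B genes 15 of 19 were below 0 (median -0.04), and of the H3 genes 8 of 12 (median -0.02). All 5 H1 genes were above 0, with a median of 0.02 and 4 of them between 0.00 and 0.02; after removal of the GC and length trend 2 of the 5 were below 0, while all 13 H4 genes stayed below it. The median share of 75-base stretches in common with another gene was 24.6% for H4, 1.47% for H1, 47.4% for H2B, 59.0% for H3 and 70.5% for H2A. In the same comparison 16 of 17 genes of G2 and mitosis and 25 of 34 S phase genes were above 0, with medians of 0.12 and 0.06. The 4 long coding entries lay on both sides of 0, at -0.35 for Hist1h2bc, at -0.50 (NM_178194) and 0.13 (NM_001177653) for Hist1h2be, and at 0.05 for Hist2h2be. The 29 genes of histone gene transcription and pre-mRNA processing had a median of -0.003, with 16 below 0 and 13 above. Slbp, at -0.32, was the lowest of them.

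**Figure D4:**
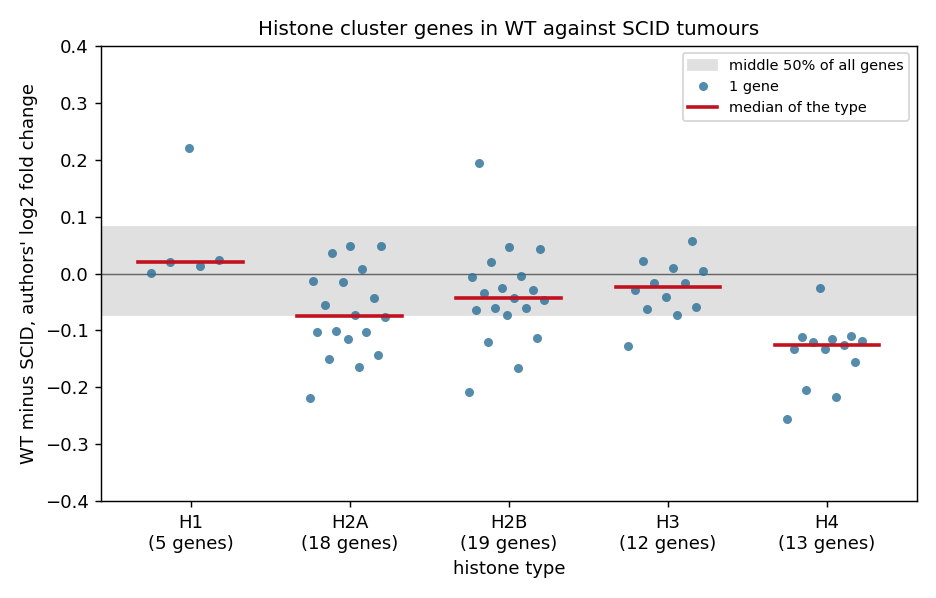
Authors' log2 fold change of WT minus SCID tumours (vertical axis) for the 67 histone cluster genes by histone type. Each point is 1 gene, red lines are medians and the grey band holds the middle 50% of all genes; all 13 H4 points lie below 0 and all 5 H1 points above it, within a range of -0.26 to 0.22.

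Only some markers of host cells had a value in the same comparisons. Of 8 macrophage markers 4 were measured (Apoe, Cd14, Cd68 and Mrc1), while Adgre1, Csf1r, Fcgr1 and Itgam had no value. All 4 measured ones were above 0 in WT minus SCID, with a median of 1.04. Against the line the medians of these 4 were 0.70 in SCID and 1.73 in WT tumours. Mrc1 was at -0.06 in SCID and 0.77 in WT tumours. Col1a1, the 1 fibroblast marker measured of 6, was at 2.61 in SCID and 1.90 in WT tumours, and 2 of 5 endothelial markers had medians of 1.21 and 1.37. None of the 5 T cell and 3 B cell markers had a value. Of 6 epithelial markers, all measured, 5 were below 0 in both hosts (medians of the 6, -0.39 and -0.27), with Krt7 lowest at -1.18 and -0.99, and Epcam was above it at 1.25 and 1.59. All 6 were above 0 in WT minus SCID, with a median of 0.12. The part of host cells in the histone values was not tested.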

How the data were processed

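The authors deposited log2 fold changes per RefSeq transcript between 3 pooled libraries, 1 per group. Per the submitters' processing notes, BWA, Partek, R 3.5.1, DESeq2 1.20.0 and the build mm9 were used, with no role or order given. The table names no log base, and base 2 is assumed. How libraries were scaled, shrunk or filtered is not given in the sources used here. A column for SCID against WT equals the difference of the other columns (within 1e-12), and was used with the sign changed. All 78 member entries matched RefSeq on GRCm38 by accession, and 70 overlapped their gene there; the other 8 are at the other position of genes listed at 2 positions, so coordinates are those of GRCm38. RefSeq names 3 further genes of this kind, which had no value here (Hist1h1t, Hist1h2aa and the pseudogene Hist1h2aj).

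Gene values are means over transcripts (Python 3.11.15, pandas 2.3.3), with medians tested on simulated data. A call is 2-fold or more, and no test was made with 1 library per group. The members, lists and named genes (the extremes overall and by type, Hist3, Hist4, the genes next to 2-fold and the polyadenylated list; in other lists up to 3 genes past 2-fold or the 2 farthest from 0, and a few known factors chosen after their values were seen) were chosen with earlier results of these data known. Alternatives were the median or extreme transcript, each transcript, coding transcripts, centring, a GC and length trend, other thresholds and leaving out types and clusters. The set of members with distinct proteins was not analysed here.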

Additional observations from a re-analysis of the deposited data

How the results depend on the processing

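The direction of the member medians held under every alternative run. The member median ran from -1.64 to -1.32 in SCID tumours and from -1.71 to -1.40 in WT tumours, the value nearest 0 coming in each from removal of a GC and length trend, and from -0.07 to -0.01 in WT minus SCID. That trend moved the H2B median to -1.18 in SCID and -1.25 in WT tumours and the H2A median to -1.27 in WT tumours. At 4-fold, 1 member was lower in SCID and 2 in WT tumours, of 4 and 5 among all genes. Counting each transcript, 1 entry was higher in SCID tumours, the long entry of Hist1h2bc. With members sharing under 50% of their 75-base stretches, a choice made after the data were seen, 34 of 37 were lower in each host, fewer only because fewer genes entered. In all, 358 of 366 recomputed medians and counts stayed close to their first value. A median was called close if it moved by less than the pooled SD between transcripts of a gene, and a count if it stayed within a fixed factor. In WT minus SCID that SD was 0.22, farther from 0 than any of the medians, and no member was called. The values of that comparison could therefore hardly move, and their share of the 358 says little. In the other comparisons too, some alternatives changed few genes. Coding transcripts kept 65 of 67 members, and leaving out Hist4 kept 66. The 358 is thus no measure of how firm the results are. No paired analysis was possible because each group has 1 library, and for that reason none could be left out. Precision is limited by the unknown depth.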
